A study of Mus musculus with 18 samples.

Results

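Lymphatic endothelial cells (LECs) of the small intestine were compared between mice whose PDGFRβ+ stromal cells had lost the kinases LATS1 and LATS2 and WT mice. The comparison used the 7 libraries titled LEC, 4 WT LEC and 3 LATS1/2 KO LEC, of 18 libraries in the series. The other 11 were made from sorted PDGFRβ+ intestinal stromal cells (IntSCs), 6 WT and 5 KO. Mice of both genotypes were adult C57BL/6J animals with a tamoxifen-inducible Cre under the control of Pdgfrb and a Cre-dependent tdTomato reporter (PDGFRb+-CreERT2-Tomato+), so Cre and reporter were shared by all groups. KO mice also carried Lats1f/f Lats2 f/f. The driver restricts the deletion to PDGFRβ+ cells such as fibroblasts, pericytes and subsets of smooth muscle cells, and the LECs themselves were not its target. The labels give the age of these mice only as adult and no time after tamoxifen. LECs were obtained by FACS with antibodies to CD45, TER-119, CD31 and podoplanin, after the muscle layer, Peyer's patches and epithelium had been stripped and CD45+ and CD326+ cells depleted on beads. The labels name the cells Lacteal LECs. No step of the sort separated lacteals from other lymphatic vessels of the gut wall, and the purity of the sort was not assessed. The study counted as many mice as libraries in each group and pooled them from independent experiments. The labels do not say which libraries came from the same experiment, so no term for it could be fitted. The p-values measure the spread between these libraries, which includes any difference between experiments.

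A lacteal is the blunt-ended lymphatic capillary of an intestinal villus, which takes up chylomicrons and carries them to the collecting lymphatic vessels. Its LECs depend on the transcription factor Prox1 and on VEGF-C acting through VEGFR3 (Flt4), and fibroblasts and smooth muscle cells around the vessel are sources of that ligand. LATS1 and LATS2 are the Hippo pathway kinases that hold the transcriptional regulators YAP and TAZ out of the nucleus. The question was which LEC transcripts differ when these kinases are removed from the stroma around the vessel.

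The 7 LEC libraries held 6900493 to 10549233 counts, and the ribosomal transcript Rn45s took 7.02 to 12.4% of them. The KO libraries recorded reads from fewer genes. WT LEC libraries held 11490 to 12059 genes with a read and KO LEC libraries 10576 to 11001. When every library was brought to the depth of the smallest one, the expected numbers were 11139 to 11785 and 10516 to 10821. WT LEC 1 stood apart from the other WT libraries in its stromal transcripts, whose sum was 4106, 1210.03, 1004 and 989 CPM (TMM-normalised counts scaled to a common library size) in WT LEC 1 to 4. In a list of values WT LEC 1 to 4 come first and KO LEC 1 to 3 follow. A count of 3 corresponds to 0.287 to 0.443 CPM in these libraries, which is the limit that a count of 0 allows and covers counting error only.

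The defining LEC transcripts were present in every library. All 17 genes on a list of LEC identity had reads in every library, and their summed level was 15275 to 18922 CPM in WT and 17108 to 22492 CPM in KO libraries. Lyve1, the hyaluronan receptor of initial lymphatics, was at 1641, 1288, 2591 and 2247 CPM in WT LEC 1 to 4 and 3069, 2841 and 3699.98 CPM in KO LEC 1 to 3. In the IntSC libraries Lyve1 was at 5.49 ± 8.07 CPM in WT and 5.39 ± 6.28 CPM in KO cells (mean ± SD, n = 6 and 5). Pdgfrb, whose promoter drives the Cre, was at 70.6, 30.2, 13.3 and 1.72 CPM in WT and 22.02, 11.4 and 0.537 CPM in KO LEC libraries, against 485 ± 164 CPM in WT and 879 ± 187 CPM in KO IntSCs. The stromal driver was thus at a small fraction of its stromal level. Lats1 was at 10.004, 5.76, 3.34 and 13.6 CPM in WT and 7.09, 16.2 and 14.8 CPM in KO LEC libraries. Lats2 was at 147, 134, 113 and 72.8 CPM in WT and 67.5, 14.9 and 137 CPM in KO LEC libraries, lowest in KO LEC 2. The groups overlapped for both kinases, with an edgeR adjusted p of 0.9999 for Lats1 and 0.9999 for Lats2. Reads from a 3′ kit lie near the end of the transcript, so these values do not check the deletion.

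Few genes differed beyond the spread between libraries. Of 10639 genes tested with edgeR's quasi-likelihood test, 7 passed an adjusted p of 0.05, which is 0.0658% of all tested, 3 higher in KO LECs (0.0282%) and 4 lower (0.0376%). The 3 that rose were the histone genes Hist1h2ap and Hist1h2ao and the Paneth cell defensin Defa6. Those that fell were the complement gene C3, the secreted ribonuclease Ang, the transcription factor Junb and the membrane transporter Slc4a11. At an unadjusted p under 0.05 there were 837 genes (7.87%), 304 higher (2.86%) and 533 lower (5.01%). The median log2 fold change over all genes tested was -0.03, and 48.3% of genes had a value above 0. In bulk libraries fewer cells of a type and less RNA per cell cannot be told apart, which holds for every gene below.

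Much of the excess of lower values lay in genes that some KO library did not record. Of the 533 genes lower at unadjusted p under 0.05, 242 had a KO library at 0 and 106 had all 3 KO libraries at 0. Their median log2 fold change was -4.95 at a median level of 16.3 CPM. Of the 304 higher genes, 23 had a WT library at 0 and 2 all WT libraries, and their median was 1.23 at 95.3 CPM. Among the 7597 genes with reads in all 7 libraries the 2 directions were nearly equal, with 570 genes at unadjusted p under 0.05 (7.5%), 280 higher (3.69%) and 290 lower (3.82%). Of these genes 3801 had a log2 fold change above 0, and 6 passed the threshold (0.079%), 3 in each direction (0.0395%). The KO libraries lay entirely above the WT libraries for 392 of them (5.16%) and entirely below for 395 (5.2%). Over all genes tested the shares without overlap were 4.19% above and 5.62% below. With all libraries thinned to the depth of the smallest, 6 of the 7 genes passed the threshold and Ang did not. The number of genes past the threshold rested on the libraries and the fit, from 0 without WT LEC 3 (edgeR, 594 genes at unadjusted p under 0.05) to 16 without KO LEC 2, 309 with DESeq2 and 538 when all 4 groups shared 1 fit. The 7 genes were past the threshold with DESeq2 and in the fit of 4 groups as well. With limma-voom the histone pair and Junb passed, while C3 (adjusted p = 0.0654), Slc4a11 (0.111), Ang (0.213) and Defa6 (0.513) did not. Defa6 also missed the threshold without a filter on low counts (adjusted p by edgeR = 0.386) and at a mean count of at least 10 (0.0839), Ang with RLE factors (0.0523), and Ang (0.0786), Defa6 (0.0815) and Junb (0.0614) without the robust step.

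**Figure D1:**
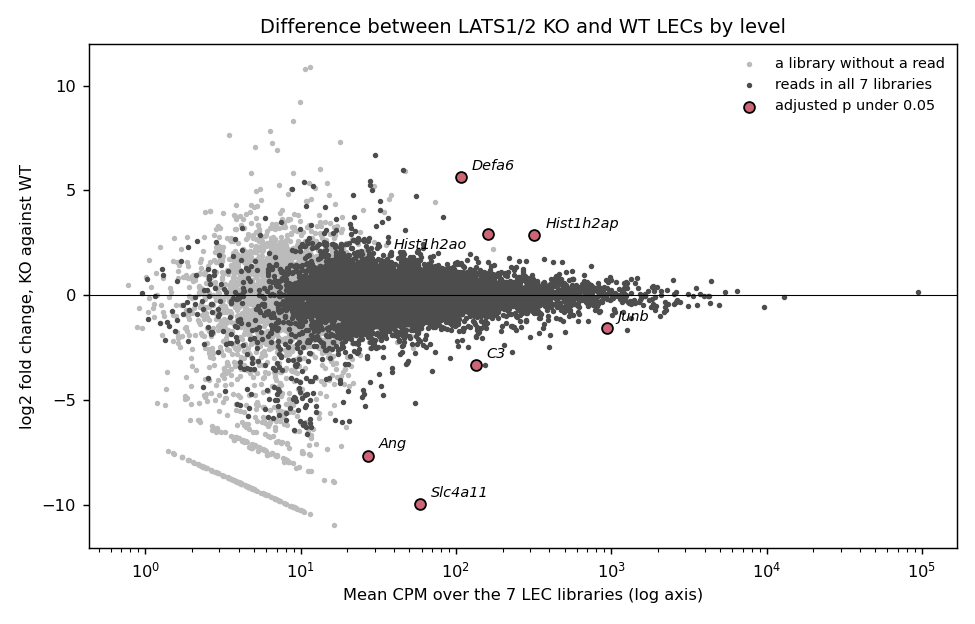
Log2 fold change of KO against WT LECs (vertical axis) against mean CPM over the 7 libraries (horizontal axis, log scale) for the 10639 genes tested. Grey points had a library without a read, dark points had reads in all 7 libraries and red points are the 7 genes past the adjusted p of 0.05. The large negative values at low level are mostly grey.

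C3, the central component of the complement cascade (chr17:57203967-57228136 in RefSeq on GRCm38.p6, the source of gene positions throughout), fell in KO LECs. C3 was at 285, 158, 229 and 202 CPM in WT LEC 1 to 4 and at 24.5, 14.1 and 26.7 CPM in KO LEC 1 to 3. Every KO library lay below every WT library. This gave a log2 fold change of -3.33 ± 0.40 (SE, n = 4 and 3; adjusted p by edgeR = 0.0116). C3 stayed past the threshold when any library but WT LEC 3 was left out, without which the adjusted p was 0.111. IntSCs held more C3 than LECs, 1238 ± 261 CPM in WT and 934 ± 99.997 CPM in KO. The log2 fold change in LECs minus that in IntSCs was -2.99 (edgeR interaction, adjusted p = 1.32e-05). Summed stromal transcripts were also lower in the KO LEC libraries (517, 559 and 807 CPM), and their part in the C3 values was not tested. Without WT LEC 1, the library with most stromal transcripts, the adjusted p of C3 was 0.0308. In the WT libraries left, stromal transcripts still summed to 989 to 1210.03 CPM, above every KO library. That fit therefore did not test their part either. The RefSeq promoter window of C3, 250 bases before the start to 50 after it, is shown because C/EBP factors are known regulators of this gene in inflammation. It lies at chr17:57228087-57228386 on the minus strand of GRCm38.p6, and capitals mark its match to the C/EBP letters TTGCNNAA, searched on both strands and found in 10.8% of all 32851 windows and in 2 of 13 complement genes with a window. This and the other motifs below were chosen after the values were seen, and a match describes the letters only.
C3: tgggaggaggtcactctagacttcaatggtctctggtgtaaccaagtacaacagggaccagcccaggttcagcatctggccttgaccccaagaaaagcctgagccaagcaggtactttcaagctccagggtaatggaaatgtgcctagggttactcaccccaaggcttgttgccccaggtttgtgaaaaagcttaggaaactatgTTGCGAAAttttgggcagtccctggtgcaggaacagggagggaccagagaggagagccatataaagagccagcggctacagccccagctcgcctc

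Ang, which encodes the secreted ribonuclease angiogenin (chr14:51091077-51102009), was almost absent from KO LECs. Its level was 42.6, 61.04, 22.9 and 63.01 CPM in WT LEC 1 to 4 and 0.148, 0.112 and 0.403 CPM in KO LEC 1 to 3, or 1780 reads in the WT against 5 in the KO libraries. No KO library came near the lowest WT library. The fitted log2 fold change of -7.67 ± 1.26 (± SE) had an edgeR adjusted p of 0.0473. The call stood close to the threshold and was lost without any 1 of the 7 libraries, with adjusted p of 0.0636 to 0.293, while the log2 fold change stayed between -8.38 and -7.33. Lats2, floxed in the KO mice only, lies on the same chromosome (chr14:57689662-57746212). The part of linked DNA in the Ang values was not tested.

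Rnase4, the neighbour with which Ang shares its promoters, lay in the opposite direction. Rnase4, named here after its values were seen, encodes another secreted ribonuclease. It was at 183, 111, 214 and 161 CPM in WT LEC 1 to 4 and 236, 572 and 400.03 CPM in KO LEC 1 to 3, and no KO library reached down to the WT values. Its log2 fold change of 1.26 ± 0.34 missed the threshold (unadjusted p = 0.00214, adjusted p = 0.268). Of the reads of both genes together, Ang took 18.9%, 35.4%, 9.67% and 28.1% in WT LEC 1 to 4. In KO LEC 1 to 3 the share was 0.0625%, 0.0195% and 0.101%. The exact binomial 95% interval of the highest KO share ran from 0.0208% to 0.294% and that of the lowest WT share from 8.53% to 10.9%, counting error only. In the GENCODE annotation of mm10, Ang-202 starts with an exon at chr14:51091150-51091253 that ends at the same base as the first exon of Rnase4-201 (chr14:51091077-51091253), and Ang-201 and Rnase4-202 share another start region in the same way. The last exons, where a 3′ kit reads, lie apart, at chr14:51101386-51102009 for Ang and chr14:51104807-51106147 for Rnase4. IntSCs had the same direction for Ang, from 23.8 ± 8.80 CPM in WT to 2.71 ± 2.40 CPM in KO, but the log2 fold change in LECs minus that in IntSCs was -4.60 (adjusted p = 0.0462). Of 11 listed genes for angiogenin and related ribonucleases, 5 were at 0 in all 7 LEC libraries and only Ang, Rnase4 and the ribonuclease inhibitor Rnh1 could be tested. Rnh1 was at 207, 79.1, 307 and 369.9 CPM in WT and 218, 309 and 173 CPM in KO libraries, which overlapped. The windows below, from RefSeq on the plus strand of GRCm38.p6, show that the upstream start of both genes is 1 sequence. The Ang window at chr14:51090827-51091126 is identical to the upstream window of Rnase4, and the downstream Rnase4 window lies at chr14:51095750-51096049.
Ang and Rnase4, upstream start: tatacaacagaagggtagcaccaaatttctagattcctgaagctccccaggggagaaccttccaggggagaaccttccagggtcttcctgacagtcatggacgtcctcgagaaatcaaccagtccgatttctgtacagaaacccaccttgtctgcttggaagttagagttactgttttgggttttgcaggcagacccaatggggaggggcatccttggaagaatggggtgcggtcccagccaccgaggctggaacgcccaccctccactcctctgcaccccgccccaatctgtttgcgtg
Rnase4, downstream start: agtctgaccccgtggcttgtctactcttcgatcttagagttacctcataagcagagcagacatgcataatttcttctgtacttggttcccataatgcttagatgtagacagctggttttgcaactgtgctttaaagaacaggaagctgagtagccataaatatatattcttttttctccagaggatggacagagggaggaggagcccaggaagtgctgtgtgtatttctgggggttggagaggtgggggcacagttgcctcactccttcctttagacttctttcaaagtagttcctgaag

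Slc4a11, a membrane transporter of the bicarbonate transporter family best known from the corneal endothelium (chr2:130684107-130697519), was nearly absent from the KO libraries. It was at 32.3, 79.98, 253 and 47.6 CPM in WT LEC 1 to 4 and at 0.296, 0 and 0 CPM in KO LEC 1 to 3. The WT libraries differed widely among themselves, with WT LEC 3 highest. In reads this was 4078 in WT against 2 in KO libraries, a ratio of 1227 per unit of depth with a counting interval (95%) of 339 to 10136. The edgeR adjusted p was 0.0116, and it rose to 0.0511 without WT LEC 2 and to 0.205 without WT LEC 3. IntSCs held little of it, 0.787 ± 0.886 CPM in WT and 2.25 ± 2.78 CPM in KO. The difference between the LEC and IntSC fold changes was -11.42 (adjusted p = 0.0149), a fitted value that depends on how zeros are handled.

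Junb, an AP-1 transcription factor of the immediate early response (chr8:84976909-84978748), was the most abundant of the 7 genes. It was at 1525, 1048, 1525 and 1152 CPM in WT LEC 1 to 4 and 348, 482 and 480.4 CPM in KO LEC 1 to 3, with no overlap and a log2 fold change of -1.59 ± 0.24 (SE, adjusted p = 0.0259). Each of the 7 fits that left out 1 library lost the call, with adjusted p of 0.0511 to 0.204 and log2 fold changes of -1.69 to -1.44. In IntSCs Junb was at 2392 ± 798 CPM in WT and 3334 ± 912 CPM in KO cells, and the fold change in LECs minus that in IntSCs was -2.14 (adjusted p = 0.00203).

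Hist1h2ap and Hist1h2ao, which encode the core histone H2A on chromosome 13 (chr13:21810367-21810918 for Hist1h2ao), rose together. Hist1h2ap was at 49.4, 97.3, 73.3 and 126 CPM in WT LEC 1 to 4 and 927, 682 and 280.5 CPM in KO LEC 1 to 3, a log2 fold change of 2.87 ± 0.41 (SE, adjusted p = 0.0239). Hist1h2ao was at 25.9, 48.8, 35.3 and 60.9 CPM in WT and 463, 342 and 146 CPM in KO libraries, a log2 fold change of 2.89 ± 0.43 (adjusted p = 0.0259). KO LEC 1 was the highest and KO LEC 3 the lowest of the KO libraries for both. These are not 2 independent measurements. The GENCODE transcripts of 480 and 482 bases share a stretch of 452, Hist1h2ap had 1.91 to 2.07 reads for each Hist1h2ao read in every library, and how the authors' counting split reads between such copies is not known. RefSeq gives Hist1h2ao as an older name of H2ac23 and Hist1h2ap as one of both H2ac23 and H2ac24. Without any 1 of the WT libraries or without KO LEC 1 the adjusted p of Hist1h2ap was 0.0846 to 0.204, and that of Hist1h2ao 0.0916 to 0.204. In IntSCs the direction was opposite, with Hist1h2ap at 59.1 ± 35.99 CPM in WT and 24.1 ± 10.02 CPM in KO cells (difference of the effects 4.09, adjusted p = 0.00203). The promoter windows of H2ac23 (chr13:21810117-21810416, plus strand) and H2ac24 (chr13:21833426-21833725, minus strand) are shown because they are near copies, with a shared stretch of 200 bases. Capitals mark CCAAT boxes, 3 in each on either strand, which 37.4% of all windows hold.
H2ac23: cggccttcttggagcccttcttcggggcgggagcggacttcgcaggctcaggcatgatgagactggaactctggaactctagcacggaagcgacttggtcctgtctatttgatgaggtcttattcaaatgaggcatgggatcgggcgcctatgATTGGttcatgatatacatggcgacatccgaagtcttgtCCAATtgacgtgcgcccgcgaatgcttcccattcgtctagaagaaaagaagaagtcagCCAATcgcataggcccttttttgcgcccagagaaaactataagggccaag
H2ac24: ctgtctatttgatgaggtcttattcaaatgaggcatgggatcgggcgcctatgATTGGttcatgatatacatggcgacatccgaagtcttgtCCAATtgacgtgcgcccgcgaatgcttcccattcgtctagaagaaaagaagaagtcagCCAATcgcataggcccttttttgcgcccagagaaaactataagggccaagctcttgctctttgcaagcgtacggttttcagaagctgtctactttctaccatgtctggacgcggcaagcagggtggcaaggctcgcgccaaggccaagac

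Among 68 symbols of replication-dependent histones, 23 had enough reads to be tested, and 22 of them had values above 0. Their median log2 fold change was 2.12. Besides the pair above none passed an unadjusted p of 0.05. In 10 genes every KO library was above every WT library, as in 4.19% of all genes tested. Of the symbols tested 17 were H2A genes, whose transcripts are near copies, and Hist2h2aa1 and Hist2h2aa2 had identical counts in all 7 libraries. The summed level was 372, 280.1, 376 and 409 CPM in WT and 2090.5, 1718 and 694 CPM in KO libraries. Genes that are high in KO libraries alone pass the filter on low counts through those libraries, and without that filter the median was 0.31. How fully a 3′ kit records replication-dependent histone transcripts was not tested, which holds for the pair above as well. Hist1h2bc, an H2B gene chosen after its values were seen, was at 149, 32.5, 87.98 and 44.8 CPM in WT and 70.8, 154 and 64.9 CPM in KO libraries, which overlapped.

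Defa6, an alpha-defensin that Paneth cells secrete into the crypt, was higher in every KO library. It was at 8.74, 0.896, 8.88 and 0.808 CPM in WT LEC 1 to 4 and 284, 44.5 and 402 CPM in KO LEC 1 to 3. The log2 fold change was 5.64 ± 0.92 (SE, adjusted p = 0.0473), and of the fits without 1 library only that without KO LEC 2 kept the call, the others giving adjusted p of 0.111 to 0.275. Other Paneth and goblet cell transcripts had a higher sum in every KO library, and none passed the adjusted threshold. Of 19 listed, 9 passed the filter on low counts, as a rule through the KO libraries, and 2 (Pla2g2a and Fcgbp) were at 0 in all 7. The sum over the whole list was 68.2, 25.6, 37.3 and 1.92 CPM in WT and 585, 204 and 1147 CPM in KO libraries, and without Defa6 it was 59.4, 24.7, 28.4 and 1.11 CPM and 301, 159 and 744 CPM. Lyz1, the Paneth cell lysozyme, chosen after its values were seen, was at 0.0971, 0.640, 0 and 0.101 CPM in WT and 18.2, 0 and 14.2 CPM in KO libraries. The epithelial cell adhesion molecule Epcam, which the bead depletion targets, was at 0.194, 0, 0 and 0 CPM in WT and 0, 4.36 and 28.6 CPM in KO libraries. Of 19 listed epithelial markers, 5 were at 0 in all 7, namely Alpi, Sis, Lct, Krt20 and Olfm4, of enterocytes and crypt stem cells. Others on that list had reads. Fabp1 was at 18.3, 70.5, 159 and 10.4 CPM in WT and 28.96, 6.04 and 18.9 CPM in KO libraries. Krt18 was at 18.7, 1.54, 3.15 and 0.808 CPM in WT and 15.4, 31.96 and 23.2 CPM in KO libraries. Fabp1 and Krt18 each overlapped between the groups. In the IntSC libraries, another sorted population, Defa6 was at 10.6 ± 19.7 CPM in WT and 136 ± 36.6 CPM in KO. The part of epithelial RNA in these values was not tested.

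**Figure D2:**
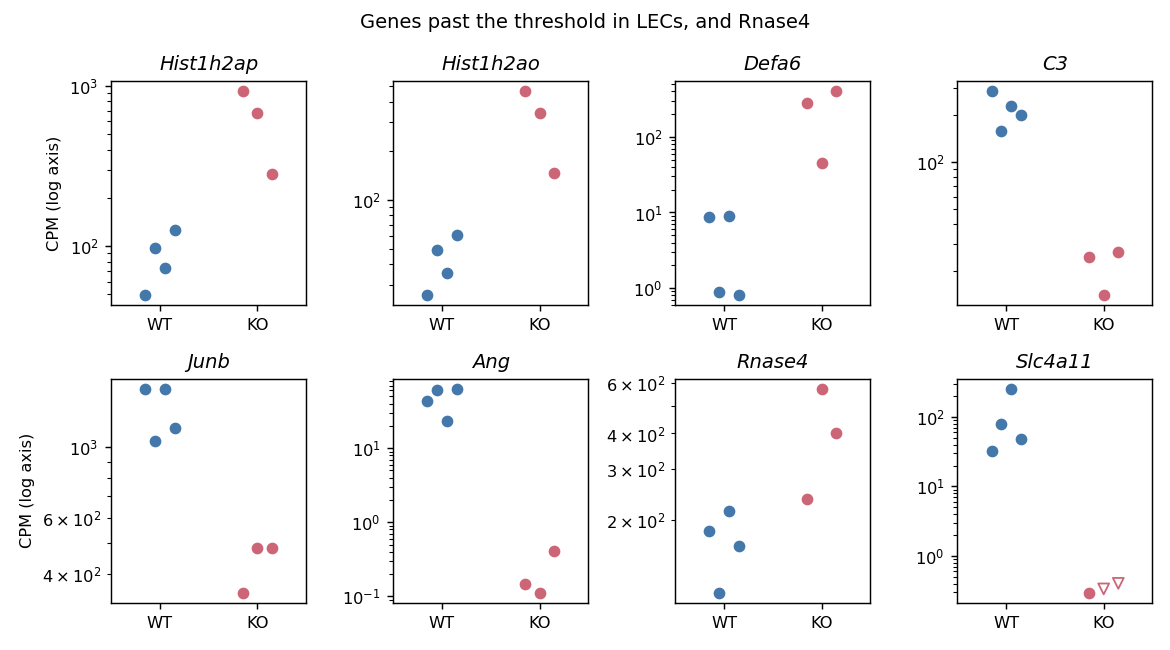
CPM of the 7 genes past the threshold and of Rnase4 in each LEC library (vertical axis, log scale), WT LEC 1 to 4 against KO LEC 1 to 3. An open triangle is a library at 0, drawn at its 3-count limit. No gene shown has overlapping groups, and Rnase4 lies higher in KO libraries where its neighbour Ang lies near 0.

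Among the genes with reads in all 7 libraries, a mean of at least 5 CPM and no overlap between the groups, the 12 with the smallest p in each direction were examined. The 9 higher ones that did not pass the adjusted threshold fell into several kinds. Eln, the elastin of the vessel wall, was at 96.1, 132, 65.8 and 132 CPM in WT LEC 1 to 4 and 399, 386 and 317 CPM in KO LEC 1 to 3, a log2 fold change of 1.78 ± 0.31 (adjusted p = 0.0634). Ppap2a (now Plpp1), a phosphatase of bioactive lipids at the cell surface, was at 314, 176, 170.2 and 251 CPM in WT and 769, 743 and 513 CPM in KO libraries (log2 fold change 1.57, adjusted p = 0.0723). Cd200, a ligand that restrains myeloid cells, was at 141, 171, 219.7 and 219 CPM in WT and 551, 351 and 941 CPM in KO libraries (log2 fold change 1.71, adjusted p = 0.0796). For each of these genes the gap between the groups was wider than the range of the WT values, yet none passed the threshold over all genes.

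Cotl1 and Sh3pxd2b act on the actin cytoskeleton. Cotl1, a coactosin-like protein that binds filamentous actin, was at 168, 131, 105 and 127 CPM in WT and 577, 382 and 286 CPM in KO libraries (log2 fold change 1.64 ± 0.31, adjusted p = 0.0796). Sh3pxd2b, a scaffold of podosomes and invadopodia, was at 152, 219, 139 and 88.8 CPM in WT and 556, 348 and 486 CPM in KO libraries (log2 fold change 1.63, adjusted p = 0.0944). Crip1, a small LIM domain protein, was at 69.3, 42.9, 58.8 and 94.8 CPM in WT and 255, 289.8 and 137 CPM in KO libraries. The lowest KO value lay above the highest WT value for each. Of the remaining 3, 1500011B03Rik, a long noncoding RNA, was at 23.2, 2.69, 13.9 and 13.3 CPM in WT and 185, 82.1 and 257 CPM in KO libraries (log2 fold change 3.71, adjusted p = 0.0612). The defensin gene Gm15284, which RefSeq names Defa30, was at 0.388, 1.02, 1.05 and 0.202 CPM in WT and 122, 2.91 and 84.2 CPM in KO libraries. Its relative Gm21498 (Defa36) was at 0.777, 1.28, 3.25 and 0.505 CPM in WT and 91.9, 10.7 and 87.6 CPM in KO libraries. For both defensins KO LEC 2 was the lowest KO library, as for Defa6, and near copies of such genes may share reads.

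Among the 9 lower ones were 2 genes of a P450 locus. Cyp4b1, a cytochrome P450 that hydroxylates fatty acids, was at 1219.8, 1624, 2159.7 and 2127 CPM in WT LEC 1 to 4 and 344, 678 and 636 CPM in KO LEC 1 to 3 (log2 fold change -1.69 ± 0.29, adjusted p = 0.0565). Its pseudogene Cyp4b1-ps2, with which it can share reads, was at 382, 600.3, 680.5 and 682 CPM in WT and 80.1, 228 and 157 CPM in KO libraries. IntSCs held little Cyp4b1, 12.2 ± 7.86 CPM in WT and 21.3 ± 10.2 CPM in KO.

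Signalling genes followed. Wnt2, a Wnt ligand, was at 324, 348, 286 and 305 CPM in WT and 120.3, 142 and 77.6 CPM in KO libraries (log2 fold change -1.48, adjusted p = 0.118). Lfng, the Fringe glycosyltransferase that tunes Notch to its ligands, was at 280.3, 409.6, 313 and 376 CPM in WT and 112, 143 and 70.3 CPM in KO libraries (log2 fold change -1.67, adjusted p = 0.0821). Otud5, a deubiquitinase, was at 129.8, 183, 128 and 169 CPM in WT and 44.3, 26.6 and 28.5 CPM in KO libraries (log2 fold change -2.20, adjusted p = 0.0723). In each the WT values were close together and every KO value lay below them.

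Ctgf (Ccn2), a matricellular protein and a classic YAP/TAZ target, was at 101, 303, 537 and 498 CPM in WT LEC 1 to 4 and 42.1, 46.3 and 78.2 CPM in KO LEC 1 to 3. WT LEC 1 was far below the other WT libraries but above every KO library. The log2 fold change was -2.69 ± 0.51 (adjusted p = 0.0796). In IntSCs, the cells in which LATS1 and LATS2 were deleted, Ctgf was at 135 ± 85.3 CPM in WT and 813 ± 471 CPM in KO libraries, and the fold change in LECs minus that in IntSCs was -5.36 (adjusted p = 0.00750). Hspb1 and H2-Eb1, also among these genes, are described with the heat shock and MHC genes. Col3a1, a fibrillar collagen of fibroblasts, was at 292, 93.2, 82.3 and 116 CPM in WT and 9.01, 19.7 and 25.5 CPM in KO libraries, with WT LEC 1 highest (log2 fold change -3.01, adjusted p = 0.0879). Its level in WT IntSCs was 2271 ± 581 CPM, and the part of stromal RNA in its LEC values was not tested.

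Immediate early genes are transcribed within minutes of a stimulus, and Junb was not alone among them. Of 26 listed, 22 were tested and 15 had values below 0, 9 of them at unadjusted p under 0.05, where 5.01% of all genes lay. These counts include Junb itself. The median log2 fold change was -0.52, and -0.87 to -0.43 over the alternatives, lowest without KO LEC 1 (over all genes tested -0.03). Fos, the partner of Jun proteins in AP-1, was at 141, 101, 233 and 181 CPM in WT LEC 1 to 4 and 33.8, 20.3 and 56.7 CPM in KO LEC 1 to 3 (log2 fold change -2.15 ± 0.46, adjusted p = 0.140). Jun was at 621, 858, 575 and 422 CPM in WT and 492, 423 and 213 CPM in KO libraries. Fos did not overlap between the groups and Jun did. Ier3, a stress-induced regulator of survival chosen after its values were seen, was at 661, 681, 766 and 968 CPM in WT and 399, 371 and 465 CPM in KO libraries. Egr1, a zinc finger factor chosen in the same way, was at 384, 353, 316 and 316 CPM in WT and 281, 144 and 191 CPM in KO libraries. In both every KO library lay below every WT library. Nfkbiz, an inhibitor of NF-κB proteins, had the opposite sign, with 33.4, 35.8, 21.7 and 11.01 CPM in WT and 138, 14.9 and 116 CPM in KO libraries. Fosl2, another Fos family member, was at 74.3, 65.3, 96.1 and 89.4 CPM in WT and 39.6, 100.5 and 304 CPM in KO libraries, highest in KO LEC 3. Both of the latter overlapped between the groups. For its stromal cells the paper warns that cell dissociation could produce immediate early transcripts, though it also saw Fosb in undissociated tissue. The part of dissociation in the LEC values was not tested.

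In IntSCs Fos was at 423 ± 116 CPM in WT and 575 ± 193 CPM in KO libraries, and the fold change in LECs minus that in IntSCs was -2.67 (adjusted p = 0.00233). For Egr1 the difference was -1.27 and did not pass the threshold (adjusted p = 0.0576). The letters TGACG are the core of the cAMP response element, through which CREB drives several immediate early genes. They occurred in the window of 11 of 20 immediate early genes (55.0%) and in 20.8% of all windows. Among genes tested, 7 of the 9 with a match and 7 of the 9 without one had values below 0, the same share. Lower at unadjusted p under 0.05 were 5 of the 9 with a match and 3 of the 9 without one, a difference not tested. The windows of Junb (chr8:84978699-84978998, minus strand) and Fos (chr12:85473640-85473939, plus strand) are given with the matches on either strand in capitals.
Junb: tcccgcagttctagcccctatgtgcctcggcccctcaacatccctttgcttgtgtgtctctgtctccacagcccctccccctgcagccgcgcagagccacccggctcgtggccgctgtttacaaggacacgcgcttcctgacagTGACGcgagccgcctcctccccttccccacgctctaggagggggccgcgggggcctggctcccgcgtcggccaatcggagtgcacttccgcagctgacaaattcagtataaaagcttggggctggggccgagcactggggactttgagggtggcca
Fos: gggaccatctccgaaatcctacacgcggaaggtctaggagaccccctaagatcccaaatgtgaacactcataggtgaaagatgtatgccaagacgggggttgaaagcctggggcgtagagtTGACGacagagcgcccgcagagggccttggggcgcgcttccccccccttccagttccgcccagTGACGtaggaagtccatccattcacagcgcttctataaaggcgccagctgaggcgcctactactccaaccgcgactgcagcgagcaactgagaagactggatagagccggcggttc

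Heat shock genes encode chaperones that refold or hold damaged proteins, and most of them lay on the same side. Of 16 tested, 12 had values below 0, 5 of them at unadjusted p under 0.05 where 5.01% of all genes lay, with a median of -0.47 (-0.66 to -0.44 over the alternatives). The counts include Hspb1, already named above for its small p. Hspb1, the small heat shock protein HSP27, was at 224, 153, 193 and 235 CPM in WT LEC 1 to 4 and 70.8, 50.2 and 55.7 CPM in KO LEC 1 to 3 (log2 fold change -1.77 ± 0.34, adjusted p = 0.0796). Hspa1a, the inducible HSP70, was at 88.7, 112, 115 and 322 CPM in WT and 36.6, 8.49 and 42.7 CPM in KO libraries (log2 fold change -2.44 ± 0.62, adjusted p = 0.241), and may share reads with its near copy Hspa1b. WT LEC 4 was highest for Hspa1a, and no KO library reached the lowest WT value. Bag3, a co-chaperone, was at 131, 161, 149.8 and 144 CPM in WT and 127, 209.7 and 204 CPM in KO libraries, which overlapped. Dnajb4, of the HSP40 family, was at 42.3, 16.6, 19.9 and 17.5 CPM in WT and 24.2, 25.3 and 63.7 CPM in KO libraries, also with overlap. The summed level of the 16 genes was 5059 to 6264 CPM in WT and 3593 to 4649 CPM in KO libraries. In IntSCs Hspb1 was at 69.7 ± 19.98 CPM in WT and 92.8 ± 27.2 CPM in KO libraries, and the fold change in LECs minus that in IntSCs was -2.26 (adjusted p = 0.00614).

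Letters of the heat shock element (TTCNNGAA or GAANNTTC) occurred in the windows of 10 of 12 heat shock genes (83.3%) and in 15.1% of all windows. Those of Hspb1 (chr5:135887669-135887968, plus strand) and Hspa1a (chr17:34972107-34972406, minus strand) are shown with the matches in capitals.
Hspb1: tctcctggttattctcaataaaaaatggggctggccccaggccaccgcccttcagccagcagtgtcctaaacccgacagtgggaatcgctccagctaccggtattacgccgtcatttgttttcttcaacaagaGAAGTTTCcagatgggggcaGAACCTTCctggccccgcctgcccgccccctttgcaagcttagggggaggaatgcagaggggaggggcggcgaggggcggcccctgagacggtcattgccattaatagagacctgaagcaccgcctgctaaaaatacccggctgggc
Hspa1a: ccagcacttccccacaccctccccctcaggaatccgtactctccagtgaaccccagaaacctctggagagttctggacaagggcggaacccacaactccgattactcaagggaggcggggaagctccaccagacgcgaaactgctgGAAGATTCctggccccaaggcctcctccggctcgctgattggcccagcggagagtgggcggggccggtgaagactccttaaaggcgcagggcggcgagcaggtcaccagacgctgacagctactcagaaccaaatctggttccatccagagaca

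Actin branching was a theme that the study drew from gene set enrichment on these samples, so its values here are not independent evidence. The study's text calls the set altered and states no direction. The title of its figure speaks of attenuated gene sets of vessel integrity. Branching by the Arp2/3 complex makes the sheet-like protrusions with which endothelial cells sprout. Of 24 genes tested, 18 had values above 0, 5 at unadjusted p under 0.05 where 2.86% of all genes lay. In 6 every KO library was above every WT library, as in 4.19% of all genes tested. The counts include Cotl1, already named above for its small p. The median log2 fold change was 0.37 (0.29 to 0.43 over the alternatives), and none passed the adjusted threshold. The summed level was 4928, 4937, 4846 and 4939 CPM in WT LEC 1 to 4 and 7392, 6695 and 6163 CPM in KO LEC 1 to 3. Besides Cotl1, Arpc5, a subunit of the complex, was at 56.04, 87.7, 124 and 32.2 CPM in WT and 194, 228 and 245 CPM in KO libraries (log2 fold change 1.57 ± 0.42, adjusted p = 0.269). Its paralogue Arpc5l lay on the other side, at 204, 116, 68.4 and 139 CPM in WT and 44.8, 101 and 45.1 CPM in KO libraries (log2 fold change -1.05, adjusted p = 0.588). Arpc4 was at 184, 112, 158 and 99.4 CPM in WT and 100.3, 129.9 and 61.3 CPM in KO libraries. Arpc5 was the only one of these 3 subunits without overlap between the groups.

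**Figure D3:**
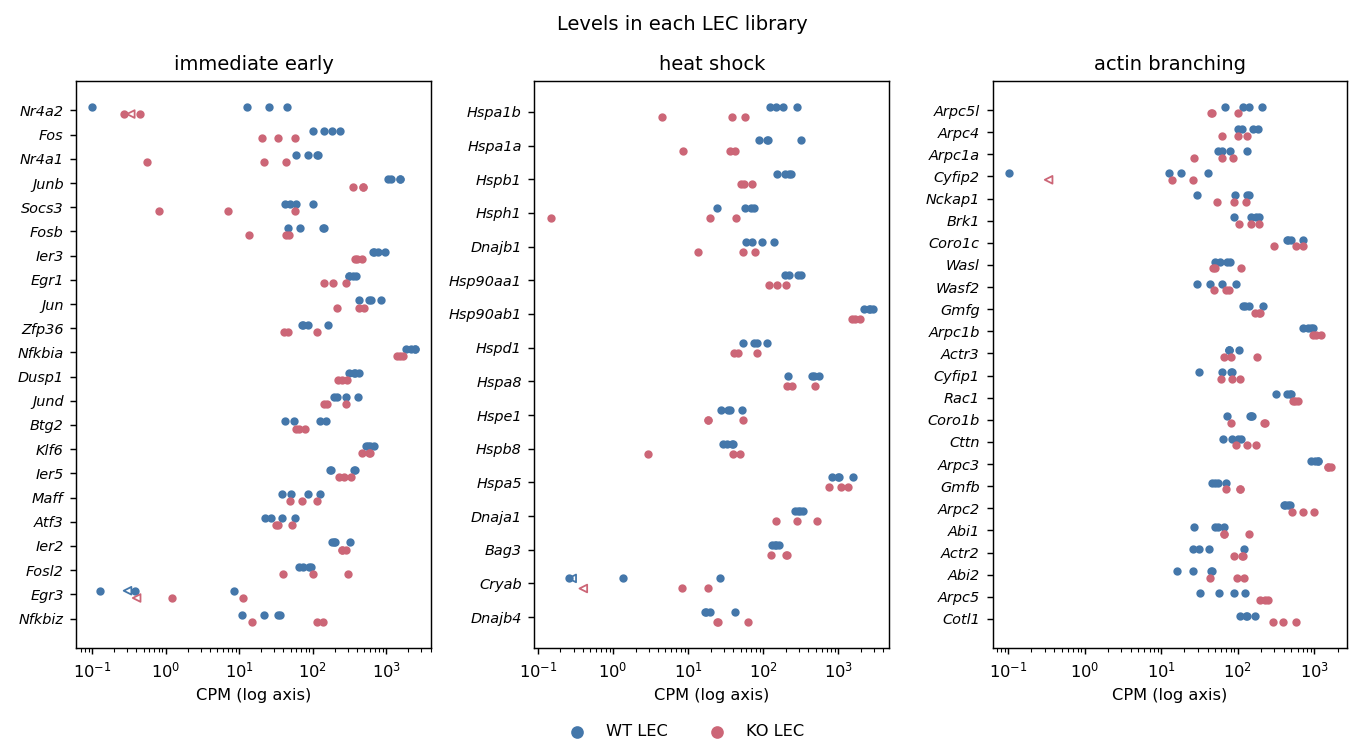
CPM in each LEC library (horizontal axis, log scale) of the tested immediate early, heat shock and actin branching genes (1 row per gene, sorted by log2 fold change), blue for WT and red for KO libraries. An open triangle is a library at 0, drawn at its 3-count limit. The summed immediate early level lies at 7345 to 8410.5 CPM in WT and 4785 to 5335 CPM in KO libraries, and that of the actin branching genes at 4846 to 4939 and 6163 to 7392 CPM.

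Cell polarity, also a theme the study chose on these samples, was divided. Of 21 genes tested 10 had values above 0 and 11 below, with a median of -0.15 that changed sign between alternatives (-0.30 to 0.06). Dlg1, a scaffold of the Scribble complex, was at 248, 305, 389 and 355 CPM in WT and 543, 574 and 809 CPM in KO libraries (log2 fold change 0.99 ± 0.25, adjusted p = 0.256). Stk11, the polarity kinase LKB1, was at 92.3, 76.7, 109 and 95.5 CPM in WT and 36.8, 69.4 and 29.1 CPM in KO libraries (log2 fold change -1.05, adjusted p = 0.587). Of 23 junction genes 14 had values below 0 and 1 differed at unadjusted p under 0.05, against 7.87% of all genes in either direction. That was Pvrl2 (Nectin2), an adhesion molecule of the nectin family, at 395, 411, 313 and 351 CPM in WT and 580.2, 608 and 595 CPM in KO libraries (adjusted p = 0.410). Cdh5, the VE-cadherin of endothelial junctions, was at 136, 269, 279 and 278 CPM in WT and 261, 121 and 160.3 CPM in KO libraries. Cldn5, the claudin of endothelial tight junctions, was at 1574, 1279, 995 and 1372 CPM in WT and 1499, 1237 and 1433 CPM in KO libraries. The groups overlapped for both.

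None of the growth factor receptors of LECs passed the threshold. Flt4, the VEGFR3 receptor of VEGF-C, was at 1506, 1528, 1319 and 1574 CPM in WT LEC 1 to 4 and 1320.4, 1186 and 1321 CPM in KO LEC 1 to 3, a log2 fold change of -0.22 ± 0.18 (adjusted p = 0.9999). Its co-receptor Nrp2 was at 948, 1073, 781 and 1009 CPM in WT and 1013, 973 and 682 CPM in KO libraries. Kdr, the VEGFR2 receptor, was at 1406, 1124, 1553 and 1713 CPM in WT and 1352, 881 and 1086 CPM in KO libraries. Groups overlapped for each of these receptors. Tek, the receptor of angiopoietins, was at 47.98, 63.3, 23.1 and 46.5 CPM in WT and 66.9, 75.4 and 98.3 CPM in KO libraries without overlap, but at an adjusted p of 0.843. Tie1, its co-receptor, overlapped at 253, 409, 545 and 645 CPM in WT and 559, 548 and 694 CPM in KO libraries. Angpt2, a ligand that LECs make themselves, was at 52.2, 181, 118 and 165 CPM in WT and 87.3, 367 and 385 CPM in KO libraries, where KO LEC 1 lay among the WT libraries (log2 fold change 1.12 ± 0.49, adjusted p = 0.587). Itgb1, the β1 integrin that aids VEGFR3 activation, was at 524, 483, 639.7 and 617 CPM in WT and 947, 733 and 971 CPM in KO libraries without overlap (adjusted p = 0.442). Ramp2, part of the adrenomedullin receptor, was at 779.7, 596, 625 and 919.96 CPM in WT and 1514, 1144 and 904 CPM in KO libraries, where KO LEC 3 lay just below the highest WT library. Over the 19 genes of VEGF and angiopoietin signalling that were tested, 10 had values above 0 and the median was 0.07, with either sign among the alternatives (-0.18 to 0.22).

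LEC identity genes were divided in the same way, 8 above 0 and 9 below with a median of -0.05 (-0.18 to 0.07 over the alternatives). Prox1, the master regulator of the lineage, was at 48.5, 90.6, 34.01 and 41.7 CPM in WT and 121, 60.02 and 36.0004 CPM in KO libraries. Pdpn, the podoplanin used in the sort, was at 314, 308, 194 and 433 CPM in WT and 157, 174 and 249 CPM in KO libraries. Both overlapped between the groups. Lyve1, given above, had every KO library above every WT library (log2 fold change 0.72 ± 0.23, adjusted p = 0.410). Maf, a transcription factor of LECs, was at 416, 721, 555 and 556 CPM in WT and 731, 757 and 960.3 CPM in KO libraries, also without overlap (log2 fold change 0.54 ± 0.24, adjusted p = 0.588). Itga9, an integrin of lymphatic valves, was at 192, 293, 266 and 322 CPM in WT and 171, 129.8 and 107 CPM in KO libraries (log2 fold change -0.98 ± 0.31, adjusted p = 0.390). Tbx1, a T-box factor of lymphatic development, was at 175, 303, 186 and 182 CPM in WT and 148, 124 and 90.001 CPM in KO libraries (adjusted p = 0.538). Of 15 pan-endothelial genes 9 had values below 0. Eng, the endoglin co-receptor of BMP signals, was at 310.3, 522, 415 and 528 CPM in WT and 145, 263 and 223 CPM in KO libraries (adjusted p = 0.291). Pecam1, the CD31 used in the sort, overlapped at 469.9, 495, 719 and 756 CPM in WT and 578, 518 and 442 CPM in KO libraries. Ecscr, an endothelial surface protein of cell migration, was at 300.3, 141, 313 and 212 CPM in WT and 408, 359 and 468 CPM in KO libraries (adjusted p = 0.518). Eng and Ecscr did not overlap between the groups and lay on opposite sides. Robo4, a guidance receptor of endothelium, overlapped at 137, 247, 259 and 230.4 CPM in WT and 117, 78.7 and 149.5 CPM in KO libraries.

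Lipid handling is the known task of lacteals. Of 20 genes of lipid uptake 10 had values above 0 and 10 below, with a median between -0.22 and 0.21 over the alternatives. Gpihbp1, which carries lipoprotein lipase across endothelium, was at 422, 375, 479 and 401 CPM in WT LEC 1 to 4 and 516, 750.4 and 788 CPM in KO LEC 1 to 3 (log2 fold change 0.71 ± 0.24, adjusted p = 0.419). Fabp4, a fatty acid binding protein, was at 696, 643, 976 and 792 CPM in WT and 1137, 1293 and 1144 CPM in KO libraries (log2 fold change 0.62, adjusted p = 0.446). Both had every KO library above every WT library. Apoe, an apolipoprotein, was at 260.1, 347, 703 and 182 CPM in WT and 137, 167 and 176 CPM in KO libraries, with WT LEC 3 highest (log2 fold change -1.22, adjusted p = 0.414). Ptrf (Cavin1), a coat protein of caveolae, overlapped at 1401, 1479, 1449 and 1661 CPM in WT and 1158, 1496 and 1088 CPM in KO libraries.

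Genes of valves, flow sensing and Notch had a median of 0.14 over 20 tested, with either sign among the alternatives (-0.08 to 0.27). Hes1, a Notch target, was at 2377, 1867, 2910.5 and 3703 CPM in WT and 1480.02, 1709 and 1759 CPM in KO libraries without overlap (log2 fold change -0.72 ± 0.23, adjusted p = 0.397). Klf4, a factor that responds to flow, was at 261, 364, 261 and 193 CPM in WT and 474, 281 and 508 CPM in KO libraries. Its relative Klf2 was at 119, 258, 111 and 128 CPM in WT and 231, 100.1 and 546 CPM in KO libraries. In both KO LEC 3 was the highest library, and the groups overlapped.

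Complement genes other than C3 also had mostly lower values. Of 16 tested besides C3, 12 were below 0, 3 of them at unadjusted p under 0.05 where 5.01% of all genes lay, and their median was -0.97 (-1.68 to -0.81 over the alternatives). Their summed level was 1020.3 to 1522 CPM in WT and 527 to 852 CPM in KO libraries. C4b, of the classical pathway, was at 187, 60.5, 56.5 and 90.6 CPM in WT LEC 1 to 4 and 2.66, 37.3 and 12.4 CPM in KO LEC 1 to 3, highest in WT LEC 1 (log2 fold change -2.50 ± 0.79, adjusted p = 0.396). IntSCs held far more C4b, 1324 ± 130.3 CPM in WT and 1067 ± 145 CPM in KO, and the part of stromal RNA in the LEC values was not tested. Serping1, the C1 inhibitor, was named after its values were seen and was at 588, 540.1, 726 and 869.9 CPM in WT and 236, 222 and 551 CPM in KO libraries, where KO LEC 3 lay above the lowest WT library. Cd59a, which blocks the membrane attack complex, was at 11.8, 18.7, 19.01 and 0.303 CPM in WT and 34.1, 24.03 and 13.2 CPM in KO libraries. Both regulators overlapped between the groups.

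MHC class II chains had lower values while most leukocyte-specific genes were near 0 in both groups. LECs are known to express MHC class II at a low level. H2-Eb1, 1 of the 12 genes with the smallest p, was at 452, 282, 240.3 and 795 CPM in WT and 92.8, 103 and 131 CPM in KO libraries (log2 fold change -2.02 ± 0.40, adjusted p = 0.0993). H2-Aa was at 324, 139.6, 287 and 362 CPM in WT and 47.6, 121 and 84.9 CPM in KO libraries (log2 fold change -1.72 ± 0.41, adjusted p = 0.200). H2-Ab1 was at 358, 234, 308 and 549 CPM in WT and 100.3, 179.9 and 97.3 CPM in KO libraries (adjusted p = 0.196). None of these chains overlapped between the groups. Over all genes tested 5.62% lay lower without overlap. Cd74, the invariant chain of MHC class II, was chosen after its values were seen. It overlapped, at 79.3, 46.8, 74.04 and 148 CPM in WT and 59.1, 39.1 and 15.2 CPM in KO libraries (edgeR adjusted p = 0.676). Of the 22 listed leukocyte markers 9 were at 0 in all 7 libraries, among them Cd3e, Cd79a and Itgax, and Ptprc (CD45), against which the cells were depleted, was at 0, 0.256, 0 and 0 CPM in WT and 0, 0.112 and 0 CPM in KO libraries. The plasma cell transcript Jchain, chosen after its values were seen, was at 55.2, 15.996, 11.8 and 19.1 CPM in WT and 0.443, 1.56 and 2.82 CPM in KO libraries. Its part in the MHC values was not tested. Over 28 genes of interferon response and antigen presentation 22 had values below 0, and the median was -0.45 (-0.57 to -0.36 over the alternatives). Bst2, the interferon-induced tetherin, was at 1069, 1753, 1102 and 1224 CPM in WT and 639, 881 and 445 CPM in KO libraries (log2 fold change -0.97 ± 0.27, adjusted p = 0.291). Psmb10, an immunoproteasome subunit, was at 320.4, 233, 220.2 and 322 CPM in WT and 52.9, 217 and 23.8 CPM in KO libraries. Neither overlapped, though KO LEC 2 came close to the WT values of Psmb10. Ifit2, an interferon-induced gene, was at 15.5, 3.97, 4.87 and 16.3 CPM in WT and 15.96, 12.2 and 39.2 CPM in KO libraries. Irf7, a regulator of the response, was at 23.6, 14.97, 9.55 and 20.8 CPM in WT and 37.1, 18.3 and 27.3 CPM in KO libraries. Both overlapped.

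Of 21 genes of chemokines, adhesion and sphingosine 1-phosphate 13 had values below 0, with a median of -0.15 that took either sign among the alternatives. Ccl21b, which with its near copies makes the CCR7 ligand of LECs, overlapped at 3281, 2179, 3426 and 3766 CPM in WT and 3986, 3719 and 4239 CPM in KO libraries. Madcam1, the addressin of gut venules, was at 22.4, 9.34, 23.9 and 24.7 CPM in WT libraries and at 0 in all 3 KO libraries, at least 160.3-fold lower against 3 counts over the KO group (unadjusted p = 0.00193, adjusted p = 0.266). Sphk2, a sphingosine kinase, was at 205, 109, 204 and 354 CPM in WT and 46.99, 122 and 48.9 CPM in KO libraries, with KO LEC 2 above the lowest WT library.

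Of 17 tested YAP/TAZ targets 14 had values below 0 in LECs and the median was -0.34 (-1.16 to -0.21 over the alternatives, lowest with limma-voom). Next to Ctgf, Ptpn14, a phosphatase that binds YAP, was at 325, 545, 291 and 474 CPM in WT and 395, 134 and 146 CPM in KO libraries, KO LEC 1 lying among the WT values (adjusted p = 0.618). Asap1, a GTPase-activating protein, had a value above 0 and overlapped, with 52.9, 169, 77.9 and 111 CPM in WT and 98.4, 139.6 and 254 CPM in KO libraries. Rbms3, an RNA-binding protein, did so with 70.3, 50.5, 22.4 and 24.2 CPM in WT and 141, 19.6 and 54.8 CPM in KO libraries. Cyr61, the sister gene of Ctgf, was named after its values were seen and overlapped, at 112, 391, 566 and 425 CPM in WT and 363, 137 and 151 CPM in KO libraries.

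Mitotic transcripts were most abundant in KO LEC 1 and 2 and least in KO LEC 3. Of 35 tested, 31 were above 0, 3 of them at unadjusted p under 0.05 where 2.86% of all genes lay, and the list median was 1.32 on the log2 scale (0.77 to 2.51 over the alternatives, highest with limma-voom). The summed level was 1045, 1272, 1068 and 1226 CPM in WT LEC 1 to 4 and 2955, 2043 and 969.9 CPM in KO LEC 1 to 3, so KO LEC 3 lay below every WT library. Without KO LEC 1 the median was 0.77. Nusap1, a spindle protein, was at 0.0971, 6.01, 0.287 and 0.101 CPM in WT and 111, 72.9 and 4.03 CPM in KO libraries (adjusted p = 0.361). Ube2c, a ubiquitin-conjugating enzyme of mitotic exit, was at 13.2, 10.1, 0.191 and 0.606 CPM in WT and 178, 44.03 and 10.7 CPM in KO libraries (adjusted p = 0.446). In both KO LEC 3 fell within the WT values. Mki67, the Ki-67 antigen of cycling cells, was at 0, 5.50, 0 and 0 CPM in WT and 28.96, 13.4 and 0.672 CPM in KO libraries (adjusted p = 0.962). Top2a, a topoisomerase of dividing cells, was at 0.971, 29.7, 0.287 and 10.9 CPM in WT and 87.2, 98.5 and 27.3 CPM in KO libraries (adjusted p = 0.549). WT LEC 2 was the WT library with most of either. Genes of DNA replication were divided, with 18 of 31 above 0, none at unadjusted p under 0.05, and a median of 0.21 (-0.52 to 0.27 over the alternatives, lowest with limma-voom). Tk1, a thymidine kinase of S phase, was at 8.94, 6.53, 0 and 10.4 CPM in WT and 52.02, 19.4 and 24.2 CPM in KO libraries (adjusted p = 0.893).

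Ribosomal protein genes had a median of -0.07 over 81 tested, near that of all genes. Rps9 was at 2192, 1715, 2230.1 and 2209.6 CPM in WT and 1268, 1714 and 1654 CPM in KO libraries (adjusted p = 0.604). Of 70 nuclear genes of oxidative phosphorylation 43 had values above 0, with a median of 0.15 (0.05 to 0.24 over the alternatives). Cox5a, of cytochrome c oxidase, was at 74.3, 82.7, 104 and 122 CPM in WT and 207, 159.7 and 177 CPM in KO libraries (adjusted p = 0.464). Sdha, of complex II, was at 114, 128, 204 and 171 CPM in WT and 65.6, 95.3 and 77.6 CPM in KO libraries (adjusted p = 0.507), so the 2 subunits lay on opposite sides without overlap.

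**Figure D4:**
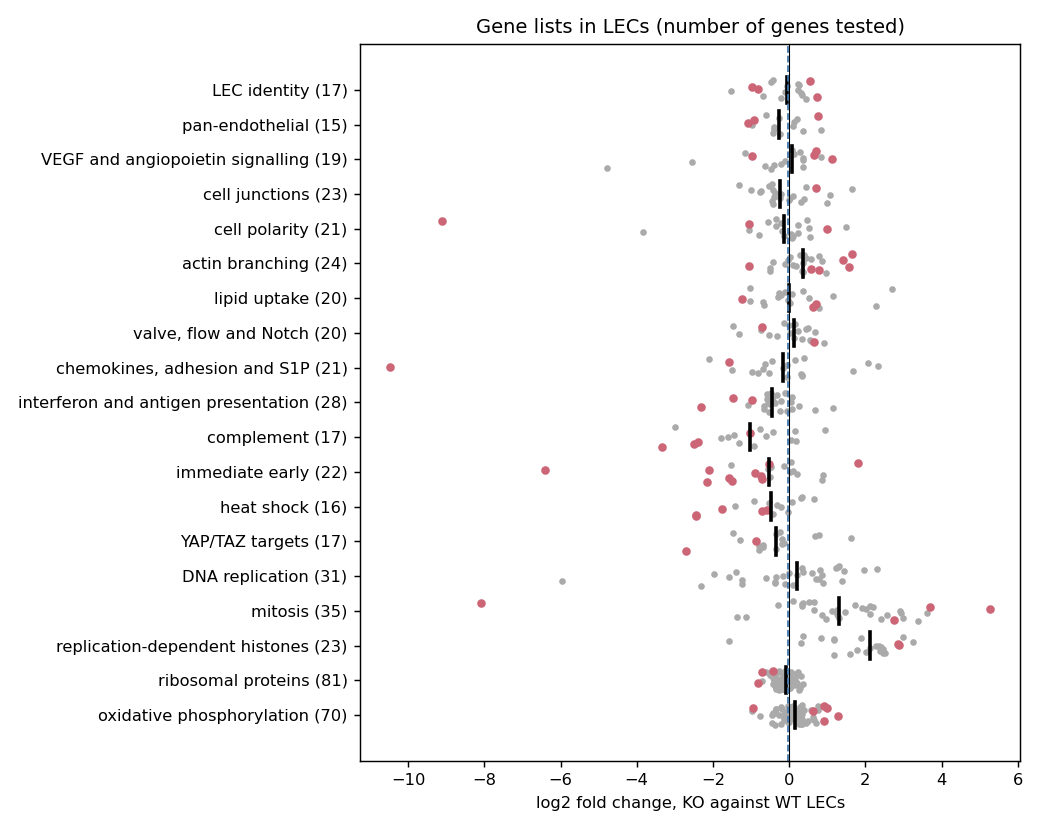
Log2 fold change of KO against WT LECs for the tested members of each gene list (horizontal axis), 1 point per gene, red at unadjusted p under 0.05. The black bar is the median of the list, the dashed line the median of all genes tested (-0.03) and the number in brackets the genes tested. The histone and mitosis lists lie mostly to the right of the dashed line and the complement list mostly to the left, while the ribosomal protein and oxidative phosphorylation genes lie close to it.

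Transcripts of other cell types differed between the groups beside these results. All 14 stromal markers had values below 0, 5 at unadjusted p under 0.05 where 5.01% of all genes lay, with a median of -1.34 that was -0.44 without WT LEC 1. Their sum was 517, 559 and 807 CPM in KO LEC 1 to 3, against 989 to 4106 CPM in WT. Adamdec1, a protease of villus fibroblasts, was at 1596, 381, 221 and 243 CPM in WT and 108, 54.1 and 165 CPM in KO libraries, and at 10557 ± 1475 CPM in WT IntSCs. All 4 tested red cell markers were below 0, with a sum of 222 to 555 CPM in WT and 9.83 to 140.4 CPM in KO libraries. Smooth muscle and pericyte markers summed to 230.3 to 379.8 CPM in WT and 256 to 283 CPM in KO libraries, and blood endothelial markers to 1354 to 1674 CPM in WT and 1292 to 1553 CPM in KO libraries, both overlapping. The blood endothelial sum includes Gpihbp1, given above with the lipid genes, which was higher in every KO library. Of 10 blood endothelial genes tested, 5 had values above 0 and 5 below. At unadjusted p under 0.05 (edgeR) 1 was higher and 3 were lower, where 2.86% and 5.01% of all genes lay. Among these markers Emcn, the endomucin of capillaries and veins, was at 501, 490.1, 499.9 and 573 CPM in WT and 351, 262 and 286 CPM in KO libraries without overlap (adjusted p = 0.373). Leukocyte markers summed to 461 to 1079 CPM in WT and 201 to 345 CPM in KO libraries, mostly MHC class II. Epithelial markers summed to 85.1 to 464 CPM in WT and 82.9 to 262 CPM in KO libraries. Of 6 tested, 4 had values above 0 and 2 below. Their median of 1.09 took either sign among the alternatives (-0.66 to 2.19). Among them Apoa1, an apolipoprotein of enterocytes and hepatocytes, was at 62.5, 106, 245 and 47.5 CPM in WT and 4.88, 18.2 and 30.2 CPM in KO libraries, highest in WT LEC 3. Krt8, a keratin, lay on the other side, at 1.46, 0, 0.191 and 0.808 CPM in WT and 0, 19.2 and 57.5 CPM in KO libraries, with overlap (edgeR adjusted p = 0.549). Markers of enteric glia and neurons did not exceed 52.6 CPM in sum. The part of these cells in the gene values above was not tested.

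**Figure D5:**
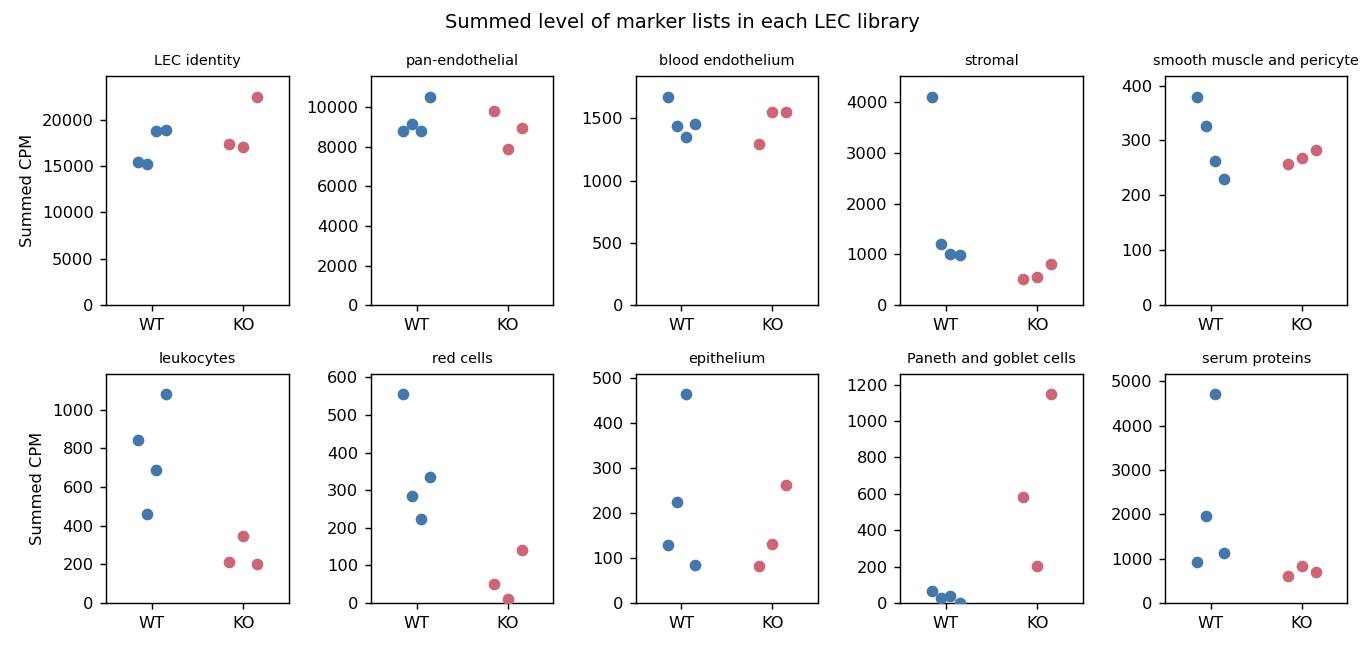
Summed CPM of the marker genes of LECs and of other cell types in each LEC library (vertical axis, linear from 0). WT LEC 1 carries the most stromal transcripts, and the Paneth and goblet cell sum is 1.92 to 68.2 CPM in WT and 204 to 1147 CPM in KO libraries.

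Whether the genotype effect in LECs differed from that in IntSCs was tested as an interaction over 14015 genes, of which 238 passed an adjusted p of 0.05 (1.7%). Of the 7 genes above, all but Defa6 were among them. Cyp4b1 (difference of the log2 fold changes -2.56, adjusted p = 0.0390), Otud5 (-1.89, adjusted p = 0.00809), H2-Eb1 (-2.37, adjusted p = 0.0142) and Hspa1a (-2.78, adjusted p = 0.0156) also had a lower effect in LECs. Cotl1 had a higher one (2.06, adjusted p = 0.00231), with 145 ± 24.5 CPM in WT and 103 ± 16.1 CPM in KO IntSCs, and so had Sh3pxd2b (2.07, adjusted p = 0.0151). For Defa6 the difference was 1.86 (adjusted p = 0.688). These genes were chosen by their LEC values, which are part of the interaction. Passing it is therefore not separate evidence for them, here or above.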

How the data were processed

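RNA of FACS-sorted LECs and IntSCs was made into 3′ end libraries with the QuantSeq kit and sequenced on a NextSeq 500. For each library the authors deposited whole-number read counts by gene symbol, not normalised. Their notes name Bowtie2, edgeR and the build mm10, and the study's methods name TopHat and Cufflinks. The counting tool, its annotation and its strand setting are not given in the sources used here, so reads of overlapping genes and near copies may be split or shared.

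Libraries were grouped by their titles. The 35 symbols on more than 1 of 23282 rows were summed to 23238 symbols. Counts of the 7 LEC libraries were filtered with filterByExpr, TMM-normalised and tested with the robust quasi-likelihood test of edgeR 4.0.16 in R 4.3.3, with Benjamini-Hochberg adjustment over all genes tested. SE is the log2 fold change divided by the square root of F. The interaction was fitted over all 18 libraries. An exact permutation of 4 against 3 libraries cannot go below p = 0.0571 (two-sided), so none was used for single genes. Scripts were tested on simulated data. DESeq2 1.42.0, limma-voom (limma 3.58.1), other scalings, filters and subsets of libraries were run as alternatives. Total counts ranged from 6900493 to 10549233 per LEC library, and intervals and limits from counts cover counting error only.

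Named genes were Lats1, Lats2, Pdgfrb, every gene past the threshold, a panel of LEC, cycling and AP-1 genes, up to 2 members per direction with the smallest p of each list with 5 or more tested, and 12 rises and 12 falls with the smallest p among genes with reads in all 7 libraries, a mean of 5 CPM or more and no overlap. Any other gene is said to be chosen after its values were seen. A few genes that the rule names are not reported here. The comparison and the gene lists were chosen with earlier results of these data known. Promoters are from RefSeq on GRCm38.p6, and no sequence is given for Slc4a11 or Defa6.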

Additional observations from a re-analysis of the deposited data

Results flagged for a closer look

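In the 4 WT LEC libraries a value was taken as far from the others when its gap to the nearest divided by the whole range exceeded Dixon's 95% critical value for 4 samples. Chance alone flags about 1 in 20 groups, and 22 of 159 groups of values were flagged. WT LEC 1 stood apart in the stromal sum (4106 CPM), in the stromal genes Adamdec1 (1596 CPM) and Col3a1 (292 CPM), in the plasma cell gene Jchain (55.2 CPM), in Dnajb4 (42.3 CPM), in Epcam (0.194 CPM, the others being at 0) and, on the low side, in Cdh5 (136 CPM). WT LEC 2 stood apart in its total count (7464241), in the cycling genes Mki67 (5.50 CPM) and Nusap1 (6.01 CPM), in Klf2 (258 CPM), Tbx1 (303 CPM), Lyz1 (0.640 CPM) and Ptprc (0.256 CPM) on the high side, and in Madcam1 (9.34 CPM), Rps9 (1715 CPM) and the complement sum with C3 (1179 CPM) on the low side. The Epcam and Ptprc values lay below the 3-count limits of their libraries (0.291 and 0.384 CPM), so these flags rest on few reads. WT LEC 3 was lowest in the actin branching sum (4846 CPM). WT LEC 4 was highest in Emcn (573 CPM), Hspa1a (322 CPM), Mt1 (115 CPM) and the sum of VEGF and angiopoietin signalling genes (7558 CPM).

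Of all 14015 genes tested for an interaction with cell type, 238 passed (1.7%), and many of the named genes were chosen by their LEC values. The genotype effect differed between LECs and IntSCs (edgeR interaction, adjusted p under 0.05) for 23 of 117 named genes. It is given as the log2 fold change in LECs minus that in IntSCs. It was higher in LECs for Hist1h2ap (4.09), Hist1h2ao (4.03), Sh3pxd2b (2.07) and Cotl1 (2.06). It was lower for the stress genes Fos (-2.67), Junb (-2.14), Ier3 (-1.92), Hspa1a (-2.78), Hspa1b (-3.02) and Hspb1 (-2.26). It was lower for the matrix genes Ctgf (-5.36), Lama2 (-5.65), Col15a1 (-4.19) and Col3a1 (-2.16). It was also lower for C3 (-2.99), Ang (-4.60), Slc4a11 (-11.42), Madcam1 (-9.74), Jchain (-3.75), Cyp4b1 (-2.56), H2-Eb1 (-2.37), Otud5 (-1.89) and Apoe (-1.87). The values of Slc4a11 and Madcam1 rest on KO LEC libraries at or near 0 and depend on how zeros are handled.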

How the results depend on the processing

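The number of genes past the threshold was 309 with DESeq2 (84 higher and 225 lower), 18 with limma-voom (11 and 7), 32 without a filter on low counts (13 and 19), 20 at a mean count of at least 10 (9 and 11), 538 with all 4 groups in 1 fit (122 and 416), 4 without the robust step (2 lower) and 9 among genes with reads in all 7 libraries (5 higher). Among genes with reads in every library the numbers were 170 with DESeq2, 18 with limma-voom, 31 without a filter, 19 at a mean count of at least 10, 206 with 4 groups and 3 without the robust step. Leaving out 1 library in turn gave 0 to 16 genes, 0 to 9 higher and 0 to 7 lower, and 0 to 13 among genes with reads in every library, lowest without WT LEC 3 (edgeR, 594 at unadjusted p under 0.05) and highest without KO LEC 2. Genes differing between LECs and IntSCs numbered 1035 with DESeq2. The cause of these differences was not tested.

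The replicate numbers were not shown to pair the samples. Deviations of same-numbered WT and KO LEC libraries correlated at -0.0358 to 0.0186 (3 pairs). When the number entered the fit as a block, 3 genes passed (1 higher and 2 lower, 2 with reads in every library), C3, Defa6 and Slc4a11, and 16 differed between LECs and IntSCs. Under the replicate block Rnh1 changed sign to 0.37.

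The median of all genes shifted by over 0.1 with limma-voom and the block (-0.23) and without a filter (-0.13). Over all named genes and alternatives 1921 values kept their direction and side of the threshold, 136 newly passed it and 48 no longer did. Signs changed for a few genes that were never past the threshold, with limma-voom for Rnh1 (0.088). Their ranges without 1 library were -0.035 to 0.19 for Cldn5, -0.21 to 1.33 for Fosl2, -0.20 to 0.81 for Hist1h2bc, -0.20 to 0.064 for Nrp2, -0.15 to 0.80 for Prox1, -0.16 to 1.23 for Rbms3 and -0.34 to 0.23 for Rnh1. The biological coefficient of variation between libraries was 1.09. With every library thinned to the depth of the smallest, 6 genes passed and Ang did not.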

Other observations

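The lists of basement membrane and serum protein genes were chosen after the values were seen, so they describe these libraries and carry no test. Of 15 basement membrane genes 11 had values above 0 in KO LECs. Their median log2 fold change was 0.59 and came down to 0.04 when all 4 groups shared a fit. Col4a2, a chain of the collagen IV that LECs and stromal cells lay down, was at 98.1, 213, 183 and 222 CPM in WT LEC 1 to 4 and 364, 453 and 359 CPM in KO LEC 1 to 3 (edgeR adjusted p = 0.291). Nid2, a nidogen that links collagen IV to laminin, was at 17.8, 67.4, 15.4 and 33.6 CPM in WT and 145, 182 and 73.6 CPM in KO libraries (edgeR adjusted p = 0.309). Both were without overlap between the groups. Lama2, a laminin chain that WT IntSCs held at 292 ± 69.5 CPM, lay on the other side, at 42.8, 17.3, 25.4 and 0.909 CPM in WT and 0.887, 0.447 and 0.269 CPM in KO LEC libraries. Col15a1, at 314 ± 54.9 CPM in WT IntSCs, was at 36.6, 20.9, 0.669 and 16.6 CPM in WT and 0.148, 0.112 and 0.403 CPM in KO LEC libraries. Neither passed the threshold (edgeR adjusted p = 0.515 for Lama2 and 0.473 for Col15a1).

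Actb, cytoplasmic β-actin, was chosen after its values were seen and was at 4257, 3058, 2810.3 and 3864 CPM in WT and 5276, 7103 and 4344 CPM in KO libraries (edgeR adjusted p = 0.375). The metallothionein Mt1, which binds zinc and copper and was also chosen after its values were seen, was at 64.5, 71.1, 72.7 and 115 CPM in WT and 172, 157 and 291 CPM in KO libraries (edgeR adjusted p = 0.266). Mt2, its neighbour, was at 81.4, 118, 133 and 73.003 CPM in WT and 188, 264 and 378 CPM in KO libraries (edgeR adjusted p = 0.197). In all 3 genes every KO library lay above every WT library, and none passed the threshold.

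Transcripts of serum proteins, which hepatocytes make, were found in every LEC library and all 17 tested had values below 0 in KO LECs. Their sum was 918, 1958, 4708 and 1137 CPM in WT LEC 1 to 4 and 618, 843 and 703 CPM in KO LEC 1 to 3, and the median log2 fold change of -1.74 was -1.04 without WT LEC 3. Alb, serum albumin, was at 199.6, 511, 1146 and 175 CPM in WT and 175, 227 and 104 CPM in KO libraries, which overlapped. WT LEC 3 was also the library with most Slc4a11 and Apoe.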
